A study of Mus musculus with 6 samples.

Results

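Genes of glucose transport, glycolysis and glycogen metabolism were followed by symbol in a table of mouse left ventricular RNA. All 33 genes of the list had a row among the 31273 symbols of the table. Polyadenylated RNA was sequenced in 6 libraries, 3 labelled control and 3 labelled cardiomyocyte-specific RBM20 overexpression, RBM20 being a splicing regulator of the heart. The study's design text names a tamoxifen-inducible, cardiomyocyte-restricted RBM20 knock-in mouse. The titles carry cki for control and cre for overexpression, each with a different number. No source used here gives the strain, age, driver line or tamoxifen treatment of either group. Separate animals are not stated either. Every p-value below reflects spread among 3 libraries a group, which may be technical in part, or in control in whole. The question was whether the genes of this pathway, and the muscle and non-muscle forms of its enzymes, differed between the genotypes.

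Glucose enters the heart muscle cell through membrane transporters and is phosphorylated by hexokinase. It is then either stored as glycogen or split by the glycolytic enzymes to pyruvate. Several steps are served by isozymes from separate genes, with forms typical of adult striated muscle (GLUT4, hexokinase 2, PFKM, beta-enolase, muscle phosphoglycerate mutase, muscle phosphorylase) and forms found widely in other cells or in the immature heart. The adult heart relies mainly on fatty acids, and glucose use is regulated through insulin, energy charge and fructose-2,6-bisphosphate.

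Expression was given as TPM, a share of all transcripts corrected for gene length, so levels of different genes can be compared. Estimated library size was 41800000 to 90300000 counted reads. The most frequent low TPM value stood for 2 reads in every library, so the number of read pairs may be smaller. Rbm20 itself was at 74.9, 90.9 and 79.5 TPM in control replicates 1 to 3 and at 321, 913 and 907 TPM in overexpression replicates 1 to 3, so the labelled group was higher in every library. Esr1, the estrogen receptor gene, was at 0.234 to 0.415 TPM under control and at 53.0 to 218 TPM under overexpression. A group with the Esr1 signal and without raised Rbm20 was not analysed here, so both differences cannot be told apart. Overexpression replicate 1 carried the Y-linked Ddx3y at 88.1 TPM, and the other 5 libraries had it at 0. The X-linked Xist was at 0.0172 TPM in overexpression replicate 1 and at 34.4 to 62.6 TPM in the other 5. Sex-linked RNA thus differed within the overexpression group, so overexpression replicate 1 was not from the same animal as overexpression replicates 2 and 3. The part of sex-linked RNA in the differences below was not tested. Mitochondrially encoded RNA took 48.3% to 52.0% of TPM in control and 36.7% to 41.0% in overexpression libraries, and the median log2(TPM + 1) difference over all tested genes was 0.55. Each gene is therefore given in deposited TPM and after a rescaling of libraries by their median ratio over genes, which brought that median to 0.01. In what follows a gene rose or fell only where limma called it (adjusted p under 0.05) in the same direction on both scales.

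Upstream sequences of 4 isozyme genes are shown because their genes belong to families whose composition is compared below. Each is the 150 bases before the RefSeq start on GRCm38.p6, written 5′ to 3′ on the gene's strand. Pgam2 and Eno3 encode muscle forms, Pgam1 and Pfkp forms of other tissues. Capitals mark each match, on either strand, to the motif of MEF2 (a muscle transcription factor family), to ACGTG (the core bound by hypoxia-inducible factor and, within CACGTG, by E-box factors) or to GGGCGG (the GC box).
Pgam2, chr11:5803797-5803946, minus strand: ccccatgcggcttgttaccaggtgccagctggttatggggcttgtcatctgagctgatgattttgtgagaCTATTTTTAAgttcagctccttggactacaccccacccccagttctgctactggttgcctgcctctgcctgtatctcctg
Eno3, chr11:70657026-70657175, plus strand: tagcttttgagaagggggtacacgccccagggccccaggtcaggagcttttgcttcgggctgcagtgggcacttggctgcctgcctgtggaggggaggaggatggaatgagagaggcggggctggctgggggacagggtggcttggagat
Pgam1, chr19:41911721-41911870, plus strand: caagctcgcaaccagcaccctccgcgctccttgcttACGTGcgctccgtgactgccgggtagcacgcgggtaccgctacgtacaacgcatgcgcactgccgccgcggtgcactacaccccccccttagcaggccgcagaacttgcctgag
Pfkp, chr13:6648772-6648921, minus strand: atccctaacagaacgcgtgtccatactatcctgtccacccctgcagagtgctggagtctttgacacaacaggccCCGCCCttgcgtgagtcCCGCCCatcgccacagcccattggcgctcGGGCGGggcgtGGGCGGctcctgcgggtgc
The Pgam2 stretch held a MEF2 match, the Pgam1 stretch an ACGTG match and the Pfkp stretch GGGCGG in both orientations, whereas Eno3 held none of them here. These 4 stretches do not stand for their classes. In full promoter windows, ACGTG was found in 5 of 9 genes of muscle or heart forms (Hk2, Pfkm, Aldoa, Pfkfb2 and Pygm) and in 6 of 10 genes of other forms. GGGCGG was found in 4 of 9 and 8 of 10, and a MEF2 match in 1 gene of each class, Pgam2 and Pfkfb1. RefSeq promoter windows of 300 bases, 250 before the start and 50 after it, were found for 32 of the 33 genes, and Slc2a4 was the member with none. Among the 49 windows of members, 6.12% held a MEF2 match against 3.19% of 32851 windows of all genes, 42.9% held ACGTG against 19.6%, and 53.1% held GGGCGG against 35.7%. The full CACGTG, which overlaps ACGTG, was in 10.2% of member windows and 7.15% of all. Some genes have several overlapping windows, so these shares are a description. Binding was not measured.

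Only Aldoc fell short of a mean of 1 TPM, leaving 32 of the 33 genes for testing, each with a control mean above 1 TPM. In deposited TPM, 9 of 32 (28.1%) were called lower and 13 (40.6%) higher, against 9.09% lower and 59% higher of all 12404 tested genes. After rescaling, 19 (59.4%) were lower and 4 (12.5%) higher, against 24% and 22.2% of all genes. Called on both scales were 9 lower genes (Slc2a4, Hk2, Pfkm, Eno3, Pfkfb1, Pfkfb2, Pygm, Pygb and Phkb) and 4 higher genes (Slc2a1, Pfkp, Eno1 and Gyg). The background on both scales was 9.09% lower and 22.2% higher. Median log2 differences of the 32 genes were 0.14 (TPM) and -0.48 (rescaled), against 0.55 and 0.01 over all genes. Another 7 genes were called higher in TPM only, 8 were lower only after rescaling, and Gpi1 and Pkm were called higher in TPM and lower after rescaling. The groups did not overlap in TPM for 24 tested members, 15 with overexpression above (46.9%, all genes 62.1%) and 9 with it below (28.1%, all genes 10.4%). After rescaling, 5 were above (15.6%, all genes 28.2%) and 21 below (65.6%, all genes 28.8%).

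**Figure D1:**
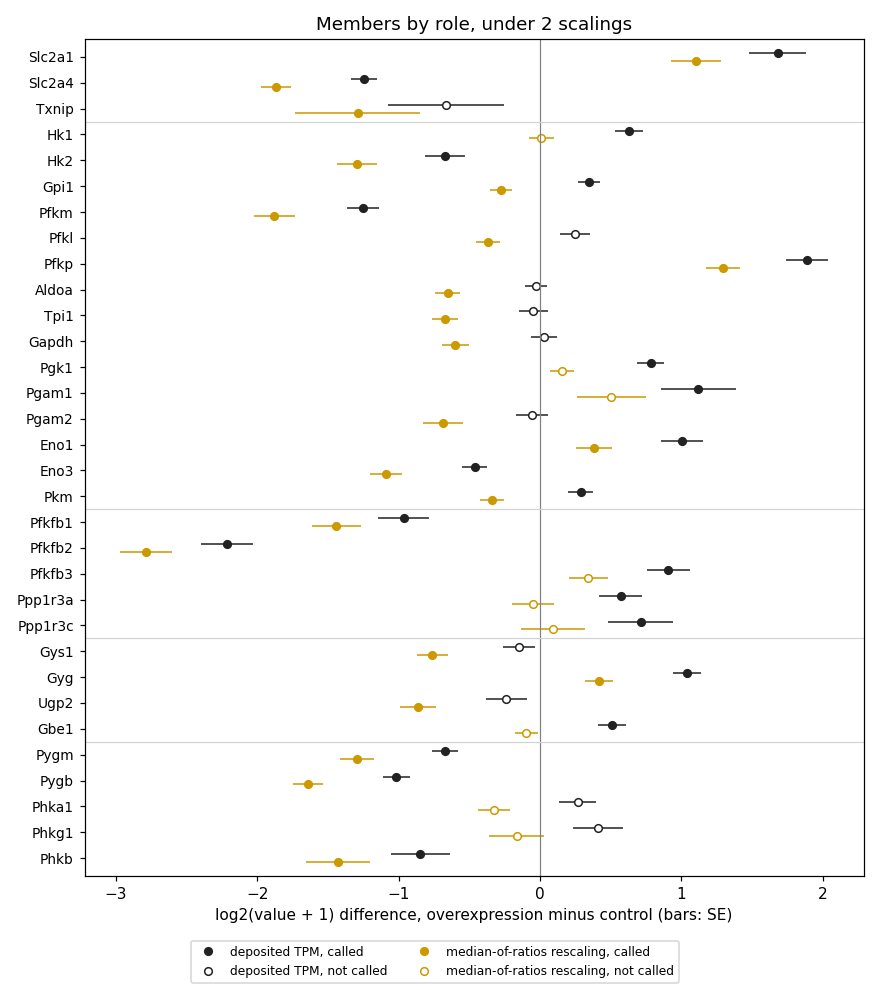
Difference in log2(value + 1), overexpression minus control, for the 32 tested genes by role (rows), in deposited TPM and after rescaling, with SE bars; filled points passed an adjusted p of 0.05. Rescaling shifts every point to the left, and 9 genes lie left of 0 and 4 right of 0 with filled points on both scales.

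The isozyme genes were split by form. Of 10 muscle or heart forms, 6 fell, 2 (Aldoa and Pgam2) were lower only after rescaling, and Phka1 and Phkg1 were not called on either scale. Of 10 other forms, 9 were tested, and 3 of them rose (Slc2a1, Pfkp and Eno1). Another 2 fell (Pfkfb1 and Pygb), Hk1, Pgam1 and Pfkfb3 were higher in TPM only, and Pfkl was lower only after rescaling. Pfkfb1 is also known from skeletal muscle and Pygb is abundant in heart, so the split is not strict for these 2. Over all tested genes 9.09% fell and 22.2% rose, and neither class was tested against these shares. Muscle forms had a median log2 difference of -0.57 (TPM) and -1.19 (rescaled), and the others one of 0.91 and 0.34. The medians over all genes were 0.55 and 0.01. Which form is higher does not depend on scaling when both are read in the same library, so each family was also described by the share of its TPM that the muscle form supplied. That share was lower with overexpression in 7 of 10 families and higher in 3, without overlap between the groups in 8. Aldolase is counted in the 7 and in the 8, but its share differed by only 0.0117 points. It rests on Aldoc, which was untested and at most 0.285 TPM. Levels in TPM did not overlap for 62.1% (above) and 10.4% (below) of all tested genes, and no such background was computed for shares. An exact two-sided permutation test on 3 against 3 libraries cannot go below p = 0.1, and each of those 8 families reached that value (0.125 after adjustment over 10 families).

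**Figure D2:**
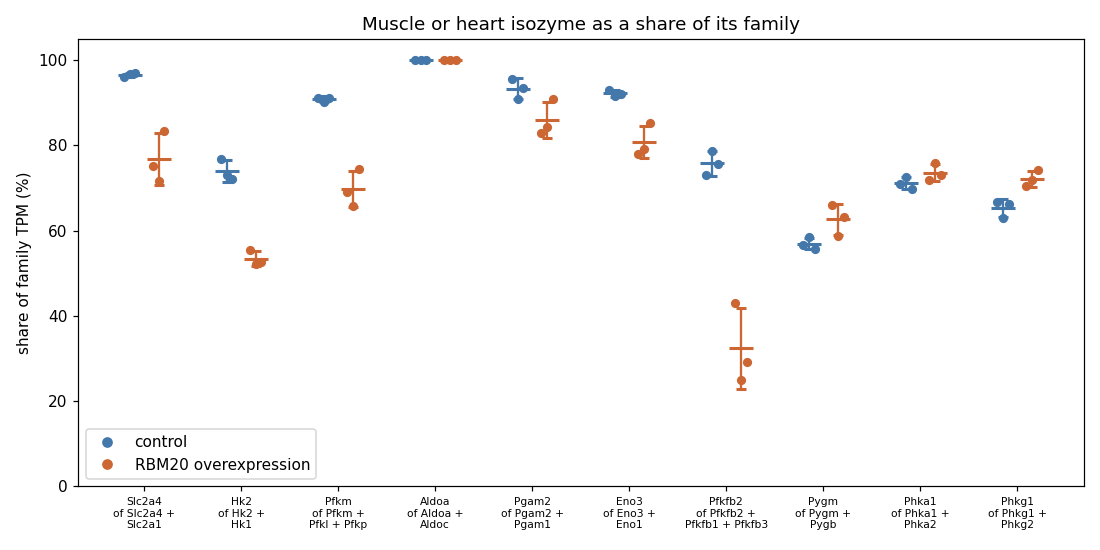
Share of family TPM (vertical axis, %) supplied by the muscle or heart isozyme in each library (points), with mean and SD, for 10 families. Overexpression libraries sit below all control libraries for Slc2a4, Hk2, Pfkm, Eno3 and Pfkfb2, and above them for Pygm and Phkg1; aldolase stays near 100% in both groups.

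The 2 glucose transporter genes moved in opposite directions. Slc2a4 encodes GLUT4, the insulin-responsive transporter of muscle and fat (chromosome 11, 69942539 to 69948188, minus strand, GRCm38). It was at 196, 208 and 188 TPM in control replicates 1 to 3 and at 81.3, 77.0 and 89.3 TPM in overexpression replicates 1 to 3. The control libraries were all above the others, and the mean went from 197 ± 9.99 to 82.5 ± 6.24 TPM (SD, n = 3 each), 2.39-fold lower. On the log2 scale Slc2a4 fell by 1.25 (SE 0.0913, limma adjusted p = 2.25e-05) in TPM and by 1.87 after rescaling. Slc2a1 encodes GLUT1, the widely expressed basal transporter that is prominent in fetal heart and endothelium (chromosome 4, 119108711 to 119137983, plus strand). Its level was 8.09, 6.80 and 5.98 TPM in control and 27.0, 30.3 and 17.7 TPM in overexpression libraries, with no overlap. Slc2a1 rose 3.59-fold in TPM (log2 difference 1.68, SE 0.204, limma adjusted p = 0.000191) and 2.30-fold after rescaling (1.10, SE 0.176, limma adjusted p = 0.00157). The GLUT4 form supplied 96.6% ± 0.486 of the pair in control and 76.8% ± 6.04 with overexpression (SD, n = 3 each). Summed TPM of both transporters was 194 to 214 in control and 106.97 to 108.3 with overexpression, so GLUT4 remained the more abundant form at a lower total.

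Endothelial cells also express Slc2a1, and their 8 markers summed to 369.98 to 512 TPM in control and 520.6 to 522 TPM with overexpression. By limma 0 of the 8 were called in TPM (1 at an unadjusted p under 0.05), and 3 were lower after rescaling. Macrophage markers summed to 314 to 413 TPM and to 673 to 1208 TPM (8 of 8 higher in TPM, 7 on both scales). Fibroblast markers summed to 478 to 622 TPM and 1205 to 1714 TPM (6 of 8 higher in TPM, 4 on both scales). Over all tested genes 59% were called higher in TPM and 22.2% on both scales. Called lower were 24% after rescaling and 9.09% on both scales. Among the fibroblast markers Dcn and Dpt were not called in TPM and were lower after rescaling (-0.49 and -0.54), and Postn alone, made by activated fibroblasts, went from a mean of 10.7 to 478 TPM. The 8 cardiomyocyte markers went from a sum of 39588 to 42525 TPM down to 25235 to 29272 TPM, with 6 lower on both scales. Log2 differences of these 6 in TPM were uneven, at -3.20 (Ryr2), -2.82 (Pln), -1.53 (Mb), -0.71 (Tnni3), -0.41 (Myl2) and -0.38 (Tnnt2). Of the other two, Myh6 was lower only after rescaling, and Actn2 was higher in TPM (0.73, limma adjusted p = 0.000168) and not called after rescaling (0.10). Whether these lists and the isozyme shares moved together was not tested, nor was the part of the lists in the isozyme changes. In bulk tissue, fewer cells of a type and less RNA per cell cannot be told apart, and changes of single marker genes were not separated from them. The 8 markers of skeletal muscle fibres summed to 557 to 691 TPM in control and 649.7 to 766 TPM with overexpression, and 4 of them were tested. These 4 had a median log2 difference of 2.10 in TPM and 1.61 after rescaling. The sum hides this, because most of it in control was Ckm. Of this list, Myh4 (0 in every library), Myh1 and Myh2 (group means of at most 0.0202 TPM) were at or near 0, Tnnt3, Tnni2 and Mylpf were higher on both scales, and Ckm, which heart also expresses, was lower on both (mean 625 and 417 TPM).

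Txnip encodes a glucose-induced protein that restrains glucose uptake, and its difference had the largest SE of the tested members (0.412 in TPM). It was at 429, 284 and 516 TPM in control and at 119, 341 and 386 TPM in overexpression libraries. The groups overlapped, with overexpression replicate 1 far below the other 5. The log2 difference of -0.66 (95% interval -1.60 to 0.28) was not called in TPM (limma adjusted p = 0.18, exact permutation p = 0.4). After rescaling it was -1.29 (limma adjusted p = 0.0438), a call that ended without control replicate 1 or 3 or overexpression replicate 1 or 2 (limma adjusted p up to 0.133, difference -0.76 at its smallest).

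Hexokinase commits glucose to the cell. Hk2, the insulin-regulated form of muscle, was at 243, 212 and 163 TPM in control and 135, 126 and 120.5 TPM in overexpression libraries, which were all lower. It fell from 206 ± 40.2 to 127 ± 7.22 TPM (SD, n = 3 each), a log2 difference of -0.67 (SE 0.141, limma adjusted p = 0.00298) in TPM and -1.29 after rescaling. Hk1, the form of most tissues, was at 73.2, 78.1 and 63.2 TPM and at 108.4, 116 and 108.2 TPM. Its groups did not overlap in TPM, and it was called higher there (0.63, limma adjusted p = 0.00079). After rescaling the Hk1 difference was 0.01 (95% interval -0.19 to 0.21). Hk2 was 2.87 ± 0.394 times Hk1 in control and 1.15 ± 0.0845 times Hk1 with overexpression (SD, n = 3 each). Both forms were thus near parity in the overexpression libraries, where Hk2 supplied 52.1% to 55.4% of the pair, against 72.0% to 76.8% in control.

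Phosphofructokinase is the main control point of glycolysis and has 3 subunit genes. Pfkm, the muscle subunit (chromosome 15, 98092589 to 98132451, plus strand), was at 525, 503 and 478 TPM in control and at 189, 197 and 249 TPM in overexpression libraries. All overexpression values lay below all control values, and Pfkm fell 2.37-fold in TPM (log2 difference -1.25, SE 0.114, limma adjusted p = 5.55e-05) and 3.64-fold after rescaling. Pfkp, the platelet form (chromosome 13, 6579768 to 6648777, minus strand), was at 10.6, 11.7 and 10.4 TPM in control and at 36.6, 53.5 and 40.6 TPM with overexpression. Pfkp rose 3.999-fold in TPM (1.89, SE 0.150, limma adjusted p = 3.24e-05) and 2.58-fold after rescaling (1.29, limma adjusted p = 0.000117). The liver form Pfkl stood at 35.6 to 43.4 TPM in control and 45.1 to 48.8 TPM with overexpression, not called in TPM (0.25, limma adjusted p = 0.0633) and lower after rescaling (-0.37, limma adjusted p = 0.00979). In control the order was Pfkm, Pfkl, Pfkp. With overexpression Pfkm was still highest, and the ranges of Pfkl and Pfkp overlapped.

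Pfkm exceeded Pfkp 46.2 ± 3.13 times in control and 4.99 ± 1.24 times with overexpression (SD, n = 3 each), a 9.26-fold smaller ratio. The summed level of the 3 genes was 553 ± 26.3 TPM in control and 302 ± 30.9 TPM with overexpression (SD, n = 3 each). Pfkm made up 90.1% to 91.2% of that sum in control and 65.8% to 74.4% with overexpression.

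**Figure D3:**
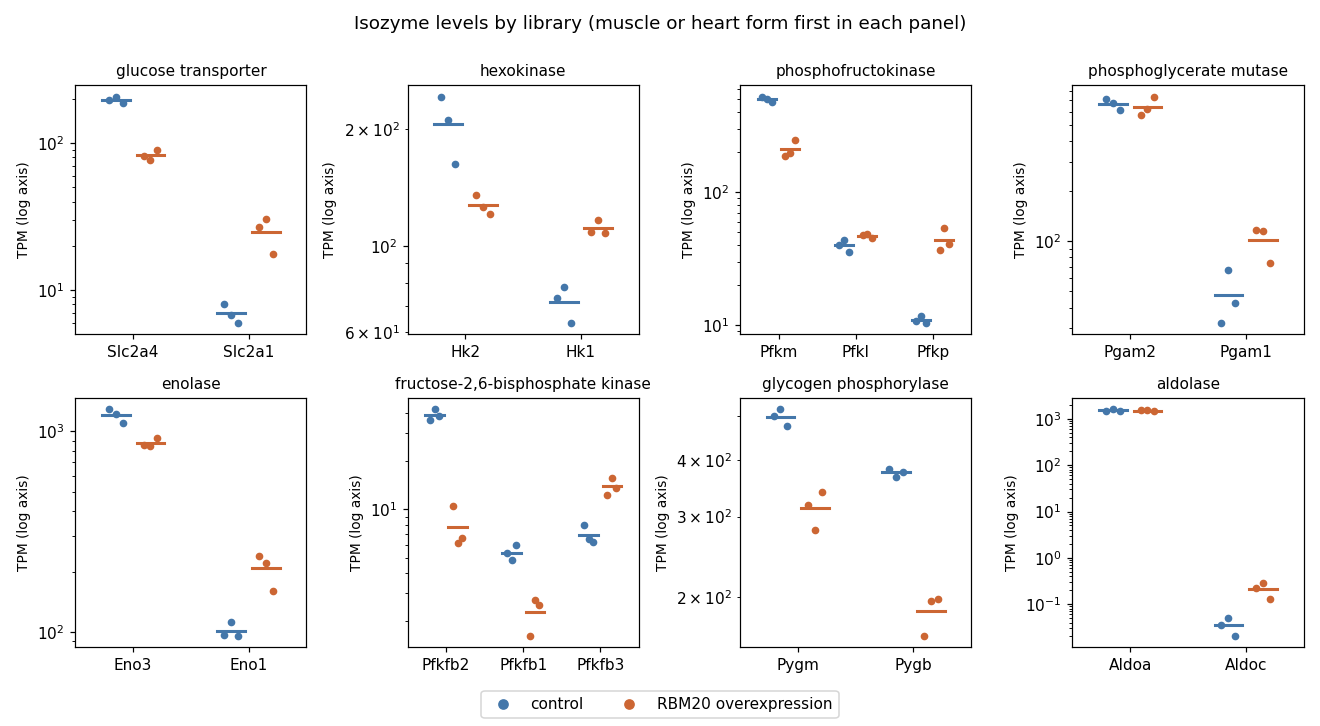
TPM of each isozyme (vertical log axis) in the 3 control and 3 overexpression libraries (points, bars at the group mean), 8 families with the muscle or heart form first. Slc2a4, Hk2, Pfkm, Eno3, Pfkfb2 and Pygm are lower in every overexpression library, and Slc2a1, Pfkp and Eno1 are higher in every one.

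The bifunctional PFKFB enzymes set the level of fructose-2,6-bisphosphate, the strongest activator of phosphofructokinase. Pfkfb2, the heart form, which insulin and adrenergic signals regulate, had the largest log2 decrease among the tested members on both scales (chromosome 1, 130689182 to 130729253, minus strand). It was at 36.1, 42.0 and 38.2 TPM in control and at 10.5, 6.15 and 6.65 TPM in overexpression libraries. The groups were far apart, and Pfkfb2 fell 4.99-fold in TPM (log2 difference -2.21, SE 0.183, limma adjusted p = 3.81e-05) and 7.67-fold after rescaling. Pfkfb1, known from liver and skeletal muscle, was low throughout, at 4.80 to 5.96 TPM in control and 1.63 to 2.73 TPM with overexpression, and also fell (-0.96, SE 0.182, limma adjusted p = 0.00174). Pfkfb3, the inducible form with the highest kinase over phosphatase activity, was at 8.02, 6.51 and 6.28 TPM and at 12.3, 15.8 and 13.7 TPM. It was called higher in TPM (0.91, limma adjusted p = 0.000835) but not after rescaling (0.34, 95% interval 0.03 to 0.66, limma adjusted p = 0.0736). Pfkfb2 was above Pfkfb3 in each control library, by 4.50 to 6.46 times, and below it in each overexpression library, at 0.389 to 0.856 times. Pfkfb2 thereby supplied 75.8% ± 2.93 of the family in control and 32.3% ± 9.48 with overexpression (SD, n = 3 each), while the family sum was 51.1 ± 2.03 and 24.0 ± 0.970 TPM.

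By group mean, the most abundant members in both groups were genes of lower glycolytic enzymes (Aldoa, Gapdh, Eno3, Pgam2, Tpi1 and Pkm). Aldoa, the aldolase of muscle, was at 1477 to 1601 TPM in control and 1465 to 1527 TPM with overexpression, Gapdh at 1180 to 1368 and 1250.4 to 1380 TPM, and Tpi1 at 585 to 707 and 589 to 687 TPM. These ranges overlap, and none of the 3 was called in TPM (log2 differences -0.02, 0.03 and -0.05, limma adjusted p = 0.788, 0.806 and 0.699). After rescaling all 3 were called lower, at -0.65, -0.60 and -0.67 (limma adjusted p = 0.000689, 0.00156 and 0.000623). Aldoc, the brain aldolase, stayed at or below 0.285 TPM in every library and was not tested, so Aldoa was 99.98% or more of the pair in both groups. Pgk1, an ATP-producing step, was at 364, 354 and 317 TPM and at 609.8, 628 and 546 TPM. It was higher in each overexpression library and called in TPM (0.78, limma adjusted p = 0.000172) but not after rescaling (0.16, limma adjusted p = 0.156). Gpi1, which follows hexokinase, was called higher in TPM (0.35, limma adjusted p = 0.00409) and lower after rescaling (-0.27, limma adjusted p = 0.0243). Pkm, pyruvate kinase of muscle and growing cells, did the same (0.29 and -0.34, limma adjusted p = 0.0176 and 0.0141), and its 2 splice forms cannot be told apart in gene totals. The Pkm call in TPM ended without control replicate 3 or overexpression replicate 2 (limma adjusted p up to 0.0674), and the Gpi1 call after rescaling ended in 5 of 6 such fits.

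Phosphoglycerate mutase and enolase each have a muscle form that dominated in both groups. Eno3, beta-enolase of muscle, was at 1285, 1221 and 1103 TPM in control and 851, 844 and 925 TPM in overexpression libraries. Eno3 was lower in all 3 overexpression libraries and fell 1.38-fold in TPM (-0.46, SE 0.0890, limma adjusted p = 0.00198) and 2.12-fold after rescaling. Eno1, the alpha form of most tissues and of the fetal heart, was at 96.7, 112 and 95.9 TPM and at 240.3, 221 and 161 TPM. It rose 2.04-fold in TPM (1.01, SE 0.150, limma adjusted p = 0.000527) and 1.32-fold after rescaling (0.38, limma adjusted p = 0.0374). The second call ended when any library but overexpression replicate 3 was left out (limma adjusted p up to 0.117). Eno3 supplied 92.2% ± 0.732 of the pair in control and 80.8% ± 3.84 with overexpression (SD, n = 3 each). Eno1b, a near copy of Eno1, had means of 0.068 and 0.138 TPM, so few reads were assigned to it, and how reads shared with other copies were counted was not stated in any source used here.

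Pgam2, the muscle mutase, was at 718, 671 and 609.9 TPM in control and 569, 620.4 and 737 TPM with overexpression. These overlap (-0.06, 95% interval -0.32 to 0.20, limma adjusted p = 0.659), and after rescaling Pgam2 was called lower (-0.68, limma adjusted p = 0.00497). Pgam1, the form of other tissues, was at 32.3, 67.5 and 42.8 TPM and at 117, 116 and 73.9 TPM. It was called higher in TPM (1.12, SE 0.268, limma adjusted p = 0.0057) and not after rescaling (0.50, 95% interval -0.06 to 1.07, limma adjusted p = 0.129). The Pgam2 share was 93.3% ± 2.42 and 86.0% ± 4.25 (SD, n = 3 each), and it overlapped, because overexpression replicate 3 at 90.89% was above control replicate 2 at 90.86% (exact permutation p = 0.2). Overexpression replicate 3 had the highest muscle share of the 3 overexpression libraries in 5 of the 7 families whose share was lower. It also had the highest cardiomyocyte marker sum of the 3 (29272 TPM) and the lowest fibroblast and macrophage sums (1205 and 673 TPM), while Rbm20 was lowest in overexpression replicate 1. The part of these differences in the shares was not tested.

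Glycogen synthesis starts from UDP-glucose on the primer protein glycogenin. Gyg, which encodes glycogenin, was at 123, 132 and 122 TPM in control and at 228, 278 and 276 TPM with overexpression. The groups were well apart, and Gyg rose 2.07-fold in TPM (1.04, SE 0.1003, limma adjusted p = 7.13e-05) and 1.34-fold after rescaling (0.42, limma adjusted p = 0.0109). Gys1, muscle glycogen synthase, was at 42.3 to 51.0 TPM and 37.9 to 44.9 TPM, and Ugp2, which makes UDP-glucose, at 197 to 243 and 158 to 228 TPM. Both overlapped in TPM and were not called (-0.15 and -0.24, limma adjusted p = 0.258 and 0.17), and both were lower after rescaling (-0.76 and -0.86, limma adjusted p = 0.000944 and 0.00117). Gbe1, the branching enzyme, was at 26.4 to 27.4 TPM and 36.9 to 41.7 TPM, higher in TPM (0.51, limma adjusted p = 0.0018) and not called after rescaling (-0.10, limma adjusted p = 0.359). Gyg thus rose on both scales while the synthase gene did not, and the difference between them was not tested.

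In glycogen breakdown both phosphorylase genes fell. Pygm, the muscle form, was at 499, 516 and 475 TPM in control and at 319, 279.7 and 339 TPM in overexpression libraries, and Pygb, the brain form that is also abundant in heart, at 383, 367 and 377 TPM and at 164, 196 and 197 TPM. All overexpression values were below all control values for both genes. Pygm fell 1.59-fold in TPM (-0.67, SE 0.0939, limma adjusted p = 0.000378) and Pygb 2.02-fold (-1.02, SE 0.0944, limma adjusted p = 6.04e-05), with -1.30 and -1.64 after rescaling. Here the muscle share went the other way from hexokinase and phosphofructokinase, from 56.9% ± 1.34 to 62.7% ± 3.65 (SD, n = 3 each). The groups barely separated, at 58.4% in control replicate 2 and 58.8% in overexpression replicate 2. The summed level of both genes was 873 ± 17.8 TPM in control and 499 ± 33.4 TPM with overexpression.

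Phosphorylase kinase activates phosphorylase in response to calcium and adrenergic signals. Phkb, its beta regulatory subunit, was at 21.3, 20.2 and 21.6 TPM in control and at 16.5, 8.39 and 10.2 TPM with overexpression. The overexpression libraries were lower and more spread, and Phkb fell 1.80-fold in TPM (-0.84, SE 0.212, limma adjusted p = 0.00719) and 2.76-fold after rescaling. Phka1 and Phkg1, the muscle alpha and catalytic gamma subunits, were at 14.1 to 16.1 and 8.75 to 11.4 TPM in control and at 16.4 to 21.1 and 10.6 to 16.6 TPM with overexpression. Neither was called on either scale (limma adjusted p = 0.0939 and 0.068 in TPM, 0.05002 and 0.52 after rescaling). Their shares against Phka2 and Phkg2 were 71.1% ± 1.40 and 73.6% ± 2.00 for Phka1 (overlapping), and 65.4% ± 2.10 and 72.2% ± 1.93 for Phkg1 (not overlapping, SD, n = 3 each).

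Ppp1r3a and Ppp1r3c encode subunits that direct protein phosphatase 1 to glycogen, where it activates the synthase. Ppp1r3a was at 67.9, 80.9 and 86.1 TPM and at 93.6, 135 and 124 TPM, and Ppp1r3c at 79.6, 84.2 and 71.6 TPM and at 194, 121 and 91.6 TPM. Overexpression replicate 1 was thus the lowest of its group for Ppp1r3a and the highest for Ppp1r3c. Both were called higher in TPM (0.57 and 0.71, limma adjusted p = 0.0092 and 0.0237) and neither after rescaling (-0.05 and 0.09). The Ppp1r3c call ended without control replicate 3 or overexpression replicate 2 (limma adjusted p up to 0.075), and its difference went down to 0.42 without overexpression replicate 1.

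**Figure D4:**
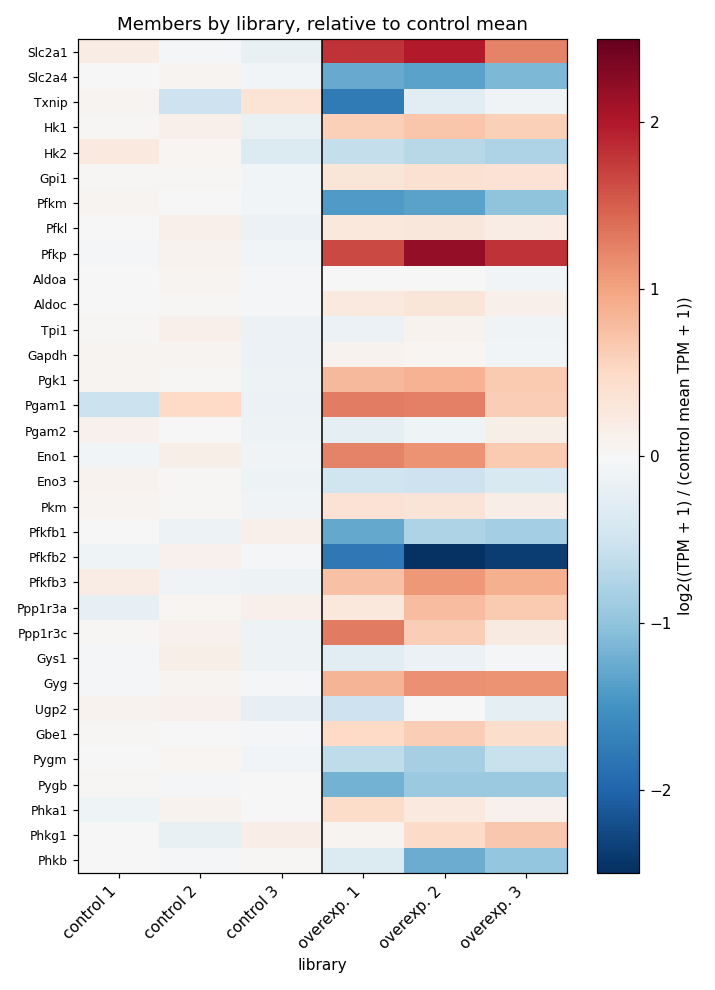
Each of the 33 genes (rows, by role) in each library (columns) as log2 of TPM + 1 over the control mean TPM + 1; red is above and blue below the control mean. Pfkfb2, Pfkm and Slc2a4 are blue and Pfkp, Slc2a1 and Gyg red in all 3 overexpression libraries, while Txnip is deep blue in overexpression replicate 1 only.

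Summed over the 33 genes, TPM was 9142 to 9982 in control and 8979 to 9409 with overexpression, and these ranges overlap. As a share of TPM without mitochondrially encoded RNA, the sum was 1.90% to 1.93% in control and 1.46% to 1.55% with overexpression, without overlap. The most abundant genes weigh most in this sum.

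A wider list of transporters, glycolytic and glycogen enzymes, regulators and near copies had 58 rows, of which 46 were tested. In TPM 24 (52.2%) were higher and 8 (17.4%) lower, and after rescaling 8 (17.4%) were higher and 16 (34.8%) lower, with 8 and 8 called on both scales. Over all genes 59% were higher and 9.09% lower in TPM, 22.2% and 24% after rescaling, and 22.2% and 9.09% on both scales. Among the 46, 5 had a control mean under 1 TPM and passed through the overexpression group. Of these, Slc2a3, Slc2a10, Hk3 and Eno2 are among the 24 called higher in TPM, and 1 (Hk3) is among the 8 rises. Another 2 had an overexpression mean under 1 TPM and passed through the control group, and both are among the 8 falls, so a difference was built into their selection. Among the largest rises after rescaling were those of Stbd1, Prkab2 and Pfkfb4. Stbd1, which tethers glycogen to membranes, was at 9.56, 9.42 and 7.997 TPM in control and at 37.7, 54.8 and 51.8 TPM with overexpression (2.28, SE 0.157, limma adjusted p = 1.79e-05). Prkab2, the glycogen-binding beta subunit of AMP-activated kinase typical of muscle, was at 17.0, 16.2 and 14.4 TPM and at 91.2, 83.9 and 68.3 TPM (2.28, SE 0.131, limma adjusted p = 9.73e-06). Both were far above control in each overexpression library and rose after rescaling too (1.69 and 1.67). Pfkfb4, another PFKFB gene, rose from 1.18 ± 0.240 to 4.23 ± 1.01 TPM (SD, n = 3 each).

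Among the largest falls were those of Fbp2, Slc2a12 and Epm2a. Fbp2, the muscle fructose bisphosphatase that opposes phosphofructokinase, fell from 28.5 ± 0.606 to 9.70 ± 0.511 TPM (SD, n = 3 each). Epm2a, the glycogen phosphatase laforin, fell from 20.4 ± 1.63 to 8.72 ± 2.13 TPM (SD, n = 3 each). Slc2a12, a further glucose transporter gene of the GLUT family, is one that passed the filter through the control group, with 2.82 ± 0.391 TPM in control and 0.222 ± 0.1004 TPM with overexpression (SD, n = 3 each). These 3 falls were called on both scales, at limma adjusted p between 2.15e-05 and 0.00043 in TPM.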

How the data were processed

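Polyadenylated RNA of mouse left ventricle was made into TruSeq libraries, and strand-specific read pairs were generated, per the labels' protocols. The authors deposited TPM per gene symbol, and nothing else was used. The submitters' processing notes name featureCounts 2.0.3, edgeR 3.40.2 and build mm8, without their roles. Not given in the sources used here were the aligner, the annotation and the use of strand in counting, so overlapping genes and near-identical copies (Gapdh, Eno1, Pgam1) are uncertain.

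Groups came from the genotype labels. Replicate numbers follow accession order and pair nothing. Genes averaging 1 TPM or more were compared as log2(TPM + 1) with limma 3.58.1 in R 4.3.3 (moderated test with trend, two-sided, Benjamini-Hochberg over all 12404 genes, threshold 0.05). Differences on this scale understate low genes, and folds are ratios of mean TPM. Because TPM sums to the same total in each library, less of an abundant RNA raises all else. Rescaling used size factors (median over genes, present in every library, of the ratio to the gene's geometric mean), of 0.788 to 1.34. Isozyme shares were tested by exact permutation over 20 arrangements. Depth was estimated from the steps of low TPM values and exon lengths of GENCODE M21 (GRCm38), where 49.2% to 58.8% of low genes were whole multiples within 0.02 reads. TPM alone gives no counting error per gene. Only the limma step was tested on simulated data, in which few genes changed. Rescaling, shares, depth and promoter steps were not simulated. The members, lists, motifs and tests were chosen with earlier results of these data known. Full values are given for members called on both scales and for isozyme families, and among other pathway genes for the 4 largest rises and falls after rescaling among genes called on both scales, of which 1 in each direction is not reported here. Promoter sequences are RefSeq's for GRCm38.p6, and coordinates entered no test. Splice forms were not analysed here. The alternatives were other scalings, pseudocounts, filters, no trend, and each library left out.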

Additional observations from a re-analysis of the deposited data

How the results depend on the processing

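Of the 13 members called on both scales, 12 were called in all 12 fits that left out 1 library, and Eno1 was the exception. Isozyme shares kept their direction in all such fits, and rescaling does not touch them. Rescaling by median of ratios changed the counts of members to 4 higher and 19 lower and those of other pathway genes to 8 higher and 16 lower. Of all tested genes, 22.2% were higher and 24% lower after rescaling. Without mitochondrially encoded genes 15 members were lower, and of all 13420 genes tested in that setting 1796 were lower and 5382 higher. Other pathway genes called higher after rescaling numbered 4 to 9 with 1 library left out. Shares over all genes were not computed for these rescaled fits. Under rescaling the sign turned for Gpi1 (-0.27), Pfkl (-0.37), Gapdh (-0.60), Pkm (-0.34), Phka1 (-0.32), Phkg1 (-0.16), Gbe1 (-0.10) and Ppp1r3a (-0.049). Without mitochondrially encoded genes it turned for Pfkl (-0.031), Gapdh (-0.26) and Phka1 (-0.00131). With 1 library left out, differences near 0 crossed it: in TPM Aldoa (-0.050 to 0.0080), Tpi1 (-0.12 to 0.016), Gapdh (-0.044 to 0.067) and Pgam2 (-0.16 to 0.025), and after rescaling Hk1 (-0.064 to 0.041), Phkg1 (-0.34 to 0.00097), Ppp1r3a (-0.14 to 0.11) and Ppp1r3c (-0.20 to 0.29). Their cause was not tested. A pseudocount of 0.1, no filter, a minimum of 5 TPM or no trend moved no member count by over 1.5 times. No paired analysis was possible because the groups share no replicate numbers in the labels.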
